A study of Homo sapiens with 7 samples.

Results

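Chromatin that was open at the definitive endoderm (hDE) and anterior foregut endoderm (hAFE) stages of a human embryonic stem cell differentiation, and was in no peak list of the stages before and after, made up 585 distal regions. They were selected on the deposited peak lists of 7 ATAC-seq libraries, so their presence in hDE and hAFE and their absence elsewhere is a description of the selection. A peak was called strong where its number in its own library, counted from the strongest, was at most 80000. On the autosomes and X, strong peaks that overlapped in any library were joined into 167407 regions. Of these, 149704 lay over 1 kb from both ends of every protein-coding gene in RefSeq, and these are called distal. A distal region was kept if it overlapped a strong peak in both hDE and both hAFE libraries and no peak of any rank in the embryonic stem cell (hESC) and pharyngeal foregut endoderm (hPFE) libraries, and 0.391% of the distal regions met this.

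All libraries came from H1, an established human embryonic stem cell line, and none carried a genetic change or a drug comparison in the labels. The study took hESC through hDE and hAFE to hPFE, with 2 libraries at each of the first stages and 1 at hPFE. No label used here states the agents or days of a step. Per the labels, the libraries of the first pair of stages (hESC, hDE) were re-analysed, which the labels of the second pair (hAFE, hPFE) do not say, so the regions take 1 stage of each origin as open and 1 as without a peak. Any difference between hDE and hAFE therefore cannot be told apart from this difference in labelled origin. The labels do not say whether replicates were separate cultures, and with 2 libraries against 2 the smallest two-sided exact permutation p is 0.333, so no value was tested between stages.

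ATAC-seq marks DNA that a transposase can reach, which in practice means promoters, enhancers and other stretches free of nucleosomes. Distal accessible regions are often enhancers, bound by transcription factors of the cell's stage and able to act on genes some distance away. In this lineage, Nodal and activin signals with EOMES, SOX17, FOXA2 and GATA factors set up definitive endoderm, and blocking BMP and TGF-beta signals then favours its anterior, foregut part. The pharyngeal endoderm that follows expresses PAX9, PAX1, TBX1 and EYA1 and gives rise to the thymus and parathyroid.

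Of the 585 regions, 2 covered part of an annotated transcript start and 1 covered a miRNA hairpin, and these are shown because they are the regions whose DNA could be read from RefSeq (GRCh38.p14). Of all 149704 distal strong regions, 4043 overlapped a start window, a larger share than among the 585, and 149 (0.0995%, against 0.171%) overlapped a miRNA gene. The first start belongs to LINC00613, a long non-coding RNA on the minus strand. Its start window (250 bases before to 50 after the start) was chr4:135913631-135913930, and 182 of its bases lay in the region chr4:135912912-135913812. The second is a start inside the gene of PTPRD, a receptor-type protein tyrosine phosphatase, at chr9:8779342-8779641 on the minus strand, with 295 bases in the region chr9:8779347-8780000, which is intragenic and 465101 bp from the nearer end of PTPRD. Capitals mark matches on either strand to the short motifs named below.
LINC00613: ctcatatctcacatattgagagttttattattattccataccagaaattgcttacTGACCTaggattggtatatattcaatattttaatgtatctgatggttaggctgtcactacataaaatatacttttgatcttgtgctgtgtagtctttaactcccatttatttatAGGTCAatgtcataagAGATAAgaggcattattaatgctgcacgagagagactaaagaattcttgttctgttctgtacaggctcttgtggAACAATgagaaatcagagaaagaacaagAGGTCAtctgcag
PTPRD: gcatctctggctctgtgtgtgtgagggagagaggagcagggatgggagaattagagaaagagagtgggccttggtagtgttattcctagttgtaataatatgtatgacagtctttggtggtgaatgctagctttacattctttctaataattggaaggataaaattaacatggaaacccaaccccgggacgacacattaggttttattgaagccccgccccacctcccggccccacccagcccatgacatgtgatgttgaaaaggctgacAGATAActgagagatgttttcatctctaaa

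In the LINC00613 window the capitals are AGATAA (the GATA motif) at bases 186 to 191, AACAAT (SOX) at bases 260 to 265, and TGACCT (a nuclear receptor motif, read as AGGTCA on the other strand) at bases 56 to 61, 170 to 175 and 288 to 293. The region covers bases 119 to 300 of this window, so the match at bases 56 to 61 lies outside it. In the PTPRD window the capitals are AGATAA at bases 271 to 276. Of all 34961 start windows of this length, AGATAA is in 10.3%, AACAAT in 10.1% and TGACCT in 13.8%. The other motifs searched on both strands, with no match in either window, were TGTTTAC and TGTTTGC (FOX, 7.16% of windows), GGTGTGA (T-box, 3.46%), TGACTCA (AP-1, 4.92%), ATGCAAAT (POU, 1.77%), GGATTA (OTX and GSC, 6.34%), TAATTA (homeodomain, 4.85%), CATTCCA (TEAD, 4.19%), CAGACA (SMAD, 16.9%) and CAGCTG (bHLH, 18.0%). Neither window reaches the most accessible point (summit) of its region, so the matches and their absence describe flanking DNA. A match is a description of the letters and not a bound site.

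The LINC00613 region had summits 353 to 370 bases downstream of the start in all 4 libraries, so the most accessible point lay inside the transcribed span. Its summit height, given here and below as cut-site signal at the summit in multiples of the library's genome-wide background, was 10.9 and 28.3 in hDE replicates 1 and 2 and 17.1 and 14.0 in hAFE replicates 1 and 2. The PTPRD region had summits 263 to 289 bases upstream of the internal start, with heights of 11.6 and 28.3 in hDE and 29.3 and 16.4 in hAFE. The 2 stages overlapped in height at both starts.

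The region chr13:66218129-66219014 held the whole hairpin of MIR4704 (chr13:66218250-66218324, plus strand), 83820 bp from PCDH9, a protocadherin gene. Capitals in the mature miRNAs mark the seed, bases 2 to 8, by which a miRNA pairs with its targets.
MIR4704: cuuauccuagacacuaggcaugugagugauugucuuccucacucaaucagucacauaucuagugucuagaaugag
hsa-miR-4704-5p: gACACUAGgcaugugagugauu
hsa-miR-4704-3p: uCAGUCACauaucuagugucua

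The seeds of both arms were shared with 0 of the other entries among the 2370 mature miRNAs in the table. The summits of the 4 libraries lay at chr13:66218828 to 66218850, beyond the hairpin, so the heights describe flanking DNA. They were 13.5 and 42.9 in hDE and 40.5 and 13.5 in hAFE. The replicates of each stage thus differed more than the stages.

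Across all 585 regions the libraries differed in the same way. The median summit height was 11.1 and 29.1 in hDE replicates 1 and 2, and 29.7 and 13.0 in hAFE replicates 1 and 2, as in the plot of heights by library. The lowest and highest were 5.68 and 60.1 in hDE replicate 1, 12.6 and 84.8 in hDE replicate 2, 11.7 and 114 in hAFE replicate 1 and 7.27 and 82.8 in hAFE replicate 2. One library of each stage was high and the other low, so the stages overlapped within these medians. The authors' fold enrichment of the summit, which is over a background local to the peak, had medians of 7.17 and 14.3 in hDE and 14.0 and 8.55 in hAFE, the same libraries being high and low. The height that the 80000th peak reached also differed between libraries, at 6.99 and 12.3 in hDE and 11.3 and 9.08 in hAFE.

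**Figure D1:**
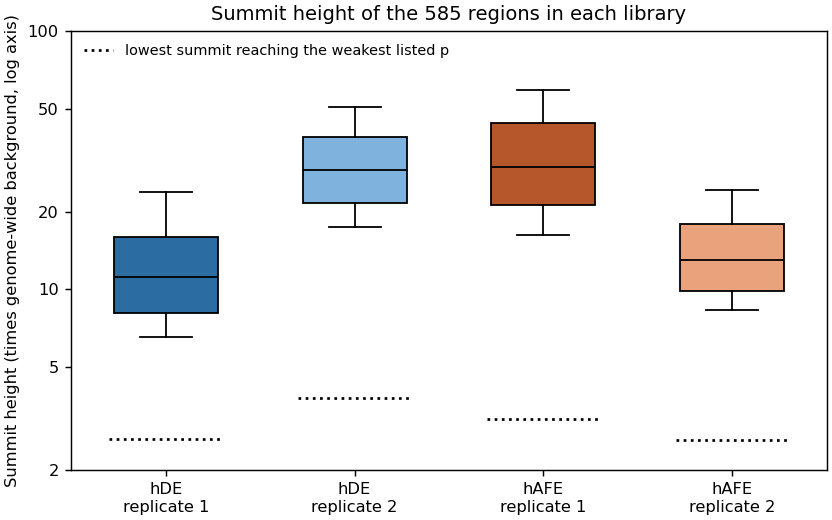
Summit height of the 585 regions in each hDE and hAFE library, in multiples of the genome-wide background on a log axis. Boxes span the quartiles with the median as a line, whiskers the 10th to 90th percentile, and dotted lines the lowest summit that could reach the weakest p in that list; the medians are 11.1, 29.1, 29.7 and 13.0 from left to right.

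The limit on strength was most often set by hAFE replicate 2, in which 246 regions (42.1%) had their worst peak number, and next by hDE replicate 1, with 173 (29.6%). Without hAFE replicate 2 the rule gave 1164 regions, and without hESC replicate 2 it gave 879. Absence in hESC and hPFE means no listed peak: a summit needed at least 3.32 and 3.46 times background in the hESC libraries and 2.47 times in hPFE to enter the lists, so weaker accessibility there was not detectable. Each list also ended at peak number 300000, so absence depends on rank within a library. The nearest peak of any rank lay a median of 3976 and 4403 bp away in hESC replicates 1 and 2 and 4115 bp away in hPFE. At 30, 42 and 38 of the regions, respectively, it lay within 500 bp.

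The regions are a small share of what hDE and hAFE had in common. Of 17313 distal regions strong in all 4 hDE and hAFE libraries, 585 (3.38%) had no peak in hESC and hPFE, 278 had no hESC peak and a strong hPFE peak, and 316 had no hESC peak and a weak hPFE peak. A further 394 lacked the hPFE peak and had a peak in 1 of the 2 hESC libraries, and 9378 (54.2%) were in both hESC libraries and strong in hPFE. Regions strong in both hDE libraries and in no other list numbered 3782, and those strong in both hAFE libraries and in no other list 1417.

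Just inside the limit were a region at APOB (peak number 79732 in hDE replicate 1), one in PRDM1 (79880 in hAFE replicate 2) and one at FAM78B (79914 in hAFE replicate 2). Just outside were regions nearest to MRPL39 (80203 in hAFE replicate 1), CITED2 (80206 in hAFE replicate 2) and SLC9A9 (80225 in hDE replicate 2). The FAM78B region had heights of 18.4 and 28.5 in hDE and 25.2 and 8.31 in hAFE, and the CITED2 region 17.0 and 42.6 in hDE and 22.1 and 8.05 in hAFE, so that 1 library separated them from the limit on either side.

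With both replicates of each stage, the regions ranked better in hDE more often than in hAFE, but this order turned when hDE replicate 2 was left out. As hDE and hAFE also differ in labelled origin, stage and origin cannot be told apart here. Both hDE peak numbers were better than both hAFE numbers at 188 regions (32.1%), against a background of 21.3% among all 17313 distal regions strong in those 4 libraries. Both hAFE numbers were better at 109 regions (18.6%), against a background of 25.1%. At the other 288 the stages overlapped, as the plot of ranks shows. Peak number is relative to each library's own list, and no p is given because the background regions differ from these in the stages that the selection used. Ordered by summit height, where the replicates of a stage lie far apart, hDE was above hAFE at 43 regions (7.35%) and below at 41 (7.01%), against 3.25% and 24.3% of the 17313. By peak number, hDE was above at 33.6% and hAFE at 41.6% without hDE replicate 2. The shares were 41.0% and 35.0% without hDE replicate 1, 57.6% and 18.8% without hAFE replicate 1, and 47.3% and 30.1% without hAFE replicate 2. By the authors' fold the shares were 7.18% and 10.9%, against 3.99% and 20.6%. On all 3 measures a smaller share of these regions than of the 17313 was higher in hAFE and a larger share higher in hDE. With all 4 libraries, more of them were higher in hDE than in hAFE by peak number, 43 against 41 by height, and fewer by fold.

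**Figure D2:**
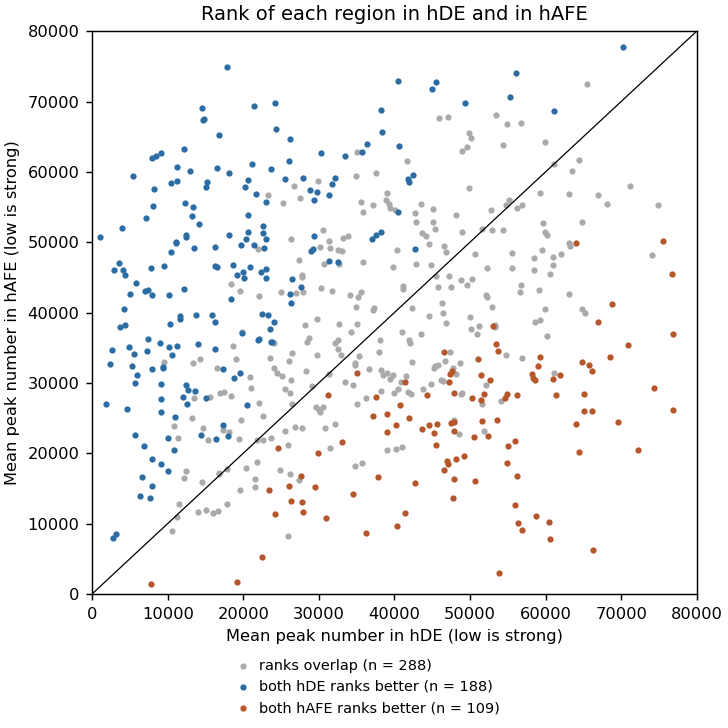
Mean peak number of each of the 585 regions in the 2 hDE libraries (x axis) and in the 2 hAFE libraries (y axis), where a low number is a strong peak and the line marks equal ranks. The 188 regions with both hDE numbers better lie above the line, the 109 with both hAFE numbers better below it, and the 288 whose ranks overlap lie on either side.

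Summits lay somewhat farther apart between stages than between replicates, and farther than between stages in the 17313 regions. The summits compared fall in the same merged region by construction, which bounds these distances. Summits of the hDE replicates lay a median of 13 bp apart and those of the hAFE replicates 14 bp apart, whereas a hDE and a hAFE summit lay 18 to 23 bp apart over the 4 pairs of libraries. They were within 50 bp of each other at 93.5% and 92.0% of the regions between replicates and at 79.3% to 82.1% between stages. In the 17313 regions the medians were 11 and 12 bp between replicates and 13 to 15 bp between stages, with 86.6% to 88.2% within 50 bp between stages. The 218 regions with a single peak in each of the 4 libraries had medians of 16 to 18 bp between stages. No test was made of this, since regions of a library share its reads.

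The strongest regions, by their worst peak number over the 4 libraries, lay at genes of varied function. The first was chr5:159978258-159979028 in ADRA1B, an alpha-1 adrenergic receptor gene, 10177 bp from its nearer end. Its height was 27.1 and 49.6 in hDE and 112 and 82.8 in hAFE, the libraries of the 2 stages not overlapping. The second was chr12:85374896-85375509, 73112 bp from ALX1, a homeobox gene of head mesenchyme, with 32.1 and 61.7 in hDE and 55.4 and 40.0 in hAFE. Here the stages overlapped in height, but both hDE peak numbers (4493 and 1775) were better than both hAFE numbers (9649 and 7468). The third was chr16:80028680-80029627, 427943 bp from MAF, a basic leucine zipper transcription factor gene, with 44.4 and 69.5 in hDE and 90.9 and 36.3 in hAFE. RCBTB1 held a region at chr13:49545674-49546351 with 17.0 and 46.3 in hDE and 95.4 and 26.2 in hAFE, where hAFE replicate 1 was the highest and the other hAFE library lay within the hDE values. LIFR, the receptor of leukaemia inhibitory factor, held one at chr5:38596991-38597472 with 27.3 and 53.0 in hDE and 71.1 and 29.1 in hAFE. The remaining 7 of the first 12 were nearest to TTC27, LOC124902738, NOVA1 (a neuronal splicing factor gene), LRRC66, GIN1, ASTN1 (astrotactin, a neuronal migration gene) and PPP2CB (a catalytic subunit of protein phosphatase 2A).

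Within 100 kb of a gene end lay 353 of the 585 regions, at 345 protein-coding genes, which is 2.23% of the 15495 genes with any distal strong region assigned. A single region was assigned to 337 genes and 2 regions to 8, and none had more. Without hAFE replicate 2 the number of genes was 666. The 8 were ADAM28, NDFIP2, CELF2, APOB, LMNTD1, PLCB1, ASPH and THSD7A. Of these, ADAM28 encodes a membrane metalloprotease, CELF2 an RNA-binding protein, PLCB1 a phospholipase C and THSD7A a thrombospondin-domain protein. The nearest gene end need not be the gene a region acts on: the second region assigned to ASPH lay inside CLVS1.

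Of the 311 developmental, signalling and control genes in 15 lists, 293 had a distal strong region assigned and 18 of these (6.14%) had one of the 585 regions, against 2.23% of all 15495 genes. The listed genes had many distal strong regions, 3530 in all, of which 19 (0.538%) were among the 585, close to the 0.391% over all distal regions. Among definitive endoderm and mesendoderm transcription factors it was 2 of 20 genes, GSC and PRDM1. The GSC region, at chr14:94805735-94806657 and 35622 bp from this organiser homeobox gene, had heights of 11.6 and 22.8 in hDE and 35.1 and 10.9 in hAFE. The PRDM1 region, at chr6:106080065-106081247 inside this repressor of transcription, had 30.6 and 58.3 in hDE and 62.6 and 12.2 in hAFE, so that hAFE replicate 2 alone was low. Both regions overlapped between stages in height. By peak number the PRDM1 region was better in both hDE libraries (11842 and 9068) than in both hAFE libraries (17455 and 79880).

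In Nodal and activin signalling 2 of 22 genes had such a region, which is 0.917% of their 218 distal strong regions, against 0.391% over all distal regions. LEFTY2, a secreted Nodal antagonist that Nodal itself induces, had one at chr1:225958001-225958755, 16781 bp from the gene, with heights of 28.4 and 32.5 in hDE and 69.3 and 22.1 in hAFE. It was the only one of the 5 distal strong regions of LEFTY2 that was strong in all 4 hDE and hAFE libraries. The other gene was TGFBR3, the betaglycan co-receptor, with an intragenic region at 6.99 and 29.7 in hDE and 41.0 and 15.8 in hAFE. In BMP signalling it was 3 of 20 genes: the ligand gene BMP7, the receptor gene BMPR1B and the intracellular effector gene SMAD1. These 3 regions are 1.20% of the 251 distal strong regions of that list, too few to set it apart from the 0.391%. The region 70771 bp from BMP7 had 7.65 and 16.0 in hDE and 58.5 and 12.2 in hAFE. The one in BMPR1B had 16.4 and 36.4 in hDE and 47.3 and 18.4 in hAFE, and the one 49115 bp from SMAD1 had 12.2 and 24.8 in hDE and 34.2 and 15.3 in hAFE. None of the 3 separated the stages in height, since hAFE replicate 2 lay within the hDE values at each. By peak number both hAFE libraries (12753 and 52367) were better than both hDE libraries (64319 and 67228) at the BMP7 region.

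In WNT signalling 2 of 31 genes were represented: DKK1, a secreted WNT inhibitor, and TCF7L2, a transcription factor acting with beta-catenin. DKK1 had heights of 26.2 and 38.5 in hDE and 21.2 and 9.87 in hAFE, both hDE libraries above both hAFE libraries, at chr10:52358023-52358451, 40366 bp from the gene. It was the single region in the plot of listed genes with this order of heights. TCF7L2 had 23.8 and 40.7 in hDE and 59.4 and 14.3 in hAFE at chr10:113078413-113079159, inside the gene. FGF signalling had FGFR1, a receptor gene, as 1 of 19 genes, and the hedgehog pathway had GLI3, a transcriptional effector gene, as 1 of 12.

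Of the anterior foregut and pharyngeal genes, EYA1, a transcriptional coactivator and phosphatase gene, had a region 36350 bp from its end, with heights of 5.90 and 20.2 in hDE and 17.1 and 14.3 in hAFE, the stages overlapping. A better-ranked region inside EYA1, at chr8:71384079-71384647 and 163447 bp from its nearer end, had 8.96 and 19.9 in hDE and 66.2 and 23.1 in hAFE. There both hAFE libraries were above both hDE libraries in height and in rank. It falls outside the limit of 100 kb, as do 3 other regions inside listed genes, 1 in ROBO1 and 2 in ROBO2, receptor genes of SLIT guidance; these were looked up after the values were seen. Guidance and migration had EFNA5, an ephrin ligand gene, as 1 of 23. Adhesion and matrix had LAMA1 (a laminin chain) and COL4A1 (a collagen IV chain), both of basement membrane, as 2 of 21. Genes of liver, pancreas and hindgut had APOB as 1 of 18, and mesenchyme and cardiac muscle had WT1 as 1 of 21. There were 0 of 18 pluripotency genes, 0 of 20 genes of the retinoic acid pathway, 0 of 14 of neural ectoderm and 0 of 10 housekeeping genes. Those lists had 140, 170, 133 and 44 distal strong regions, so that at the overall 0.391% a count of 0 is near the background. In the lists with such a gene, the 585 made up 0.200% (guidance and migration) to 1.24% (liver, pancreas and hindgut) of the distal strong regions. These counts are all within 100 kb of a gene end. The lists are short, so that 1 gene moves a list's share by several percentage points, and no list was tested.

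**Figure D3:**
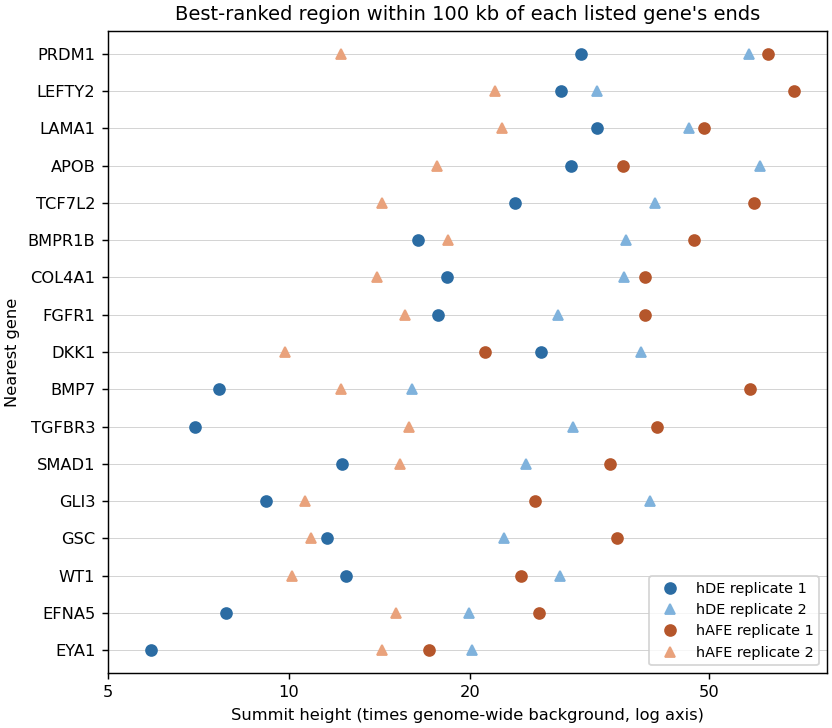
Summit height in each hDE and hAFE library, in multiples of the genome-wide background on a log axis, at the best-ranked of the 585 regions within 100 kb of an end of the gene, for 17 of the listed genes with one, ordered by the mean of the 4 libraries. At DKK1 both hDE libraries lie above both hAFE libraries in height. At the other regions drawn the stages overlap in height (the region deep inside EYA1 is not drawn). In most rows hDE replicate 2 and hAFE replicate 1 lie to the right.

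Of the listed genes without such a region within 100 kb, 11 that define the stages are named here. They were picked from genes with 0, so this count follows from the choice. EYA1, a pharyngeal gene that had one, is given above and is not among the 11. These 11 genes had 139 distal strong regions in all, 22 of them strong in all 4 hDE and hAFE libraries. At the overall shares of 0.391% and 3.38%, a count of 0 is also near the background. SOX17, FOXA2, GATA4, GATA6, EOMES and CXCR4 of endoderm had 14, 21, 18, 15, 16 and 13 distal strong regions assigned, of which 2, 2, 4, 2, 4 and 1 were strong in all 4 hDE and hAFE libraries, and each of those had a peak in hESC or hPFE. The same held for PAX9 and PAX1, with 3 and 4 such regions. TBX1, POU5F1 and NANOG had 0 strong in all 4. As a check of the labels, the 5 hDE markers (SOX17, CXCR4, EOMES, GATA6 and FOXA2) had 48 strong regions within 100 kb in each hDE library, against 29 and 27 in hESC, 33 and 38 in hAFE and 22 in hPFE. Gene by gene, EOMES, GATA6 and FOXA2 had more in both hDE libraries than in both hAFE libraries. SOX17 (7 and 7 in hDE, 6 and 9 in hAFE) and CXCR4 (5 and 8 in hDE, 8 and 6 in hAFE) did not. Of the hAFE markers, OTX2 had 10 and 8 in the hAFE libraries against 12 and 14 in those of hESC, SOX2 had 10 and 10 against 6 and 11, HHEX 3 and 4 against 4 and 2, and FOXA2 6 and 9 against 8 and 10, so none of these 4 set hAFE apart from hESC. The 3 hESC markers (POU5F1, NANOG and SOX2) had 12 and 20 in the hESC libraries, 9 and 3 in those of hDE, 13 and 13 in those of hAFE and 10 in hPFE, and did not separate hESC from hAFE. Of the hPFE markers, PAX9 had 12 in hPFE against 3 to 10 in the other 6 libraries. PAX1 had 8 against 5 to 9, TBX1 2 against 0 to 3 and EYA1 5 against 7 to 10, so of these only PAX9 had its highest count in hPFE.

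APOB, the gene of apolipoprotein B of liver and gut lipoproteins, had 2 of the regions only 163 bp apart, the closest pair. The stronger, at chr2:21056121-21056726, had heights of 29.5 and 60.7 in hDE and 36.0 and 17.6 in hAFE. The weaker, at chr2:21055466-21055958, had 8.30 and 31.6 in hDE and 33.3 and 19.5 in hAFE. At CELF2 the 2 intragenic regions also lay close, with 12.2 and 35.1 in hDE and 49.1 and 14.5 in hAFE at the stronger and 8.52 and 32.5 in hDE and 41.9 and 15.3 in hAFE at the weaker.

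Such neighbours were rare. Only 17 of the 585 regions (2.91%) had another within 50 kb, and the median gap to the nearest was 1550535 bp. The only region with 2 others within 50 kb was chr6:77814099-77815307 inside MEI4, a gene of meiotic recombination, with heights of 16.8 and 54.8 in hDE and 54.5 and 31.1 in hAFE. Its neighbours in MEI4 were chr6:77779923-77780543 and chr6:77834510-77835030. The other pairs within 50 kb were nearest to RAB28, RSPO3 (an R-spondin, which enhances WNT signalling), TENM4 and MAP2K4, with 1 pair inside NRG1 (neuregulin 1). Regions strong in hDE alone were within 50 kb of 90 of the 585 (15.4%), those strong in hAFE alone within 50 kb of 23 (3.93%), and those lasting into hPFE within 50 kb of 10 (1.71%); the hDE class is the largest of these.

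The regions lay somewhat farther from genes than the whole set of distal strong regions, a difference that was not tested. A protein-coding gene contained 244 of them (41.7%, Wilson 95% interval 37.8% to 45.7%), against 46.0% of all 149704. Over 100 kb from every protein-coding gene end lay 232 (39.7%, 35.8% to 43.7%), against 35.3%. The median distance to the nearest end was 69983 bp, against 53594 bp. Within 10 kb lay 63 regions (10.8%, against 17.0%), and 46 (7.86%, against 6.71%) lay over 500 kb away. A lncRNA gene overlapped 99 (16.9%, against 18.4%), and 257 (43.9%, against 39.5%) overlapped neither a protein-coding nor a lncRNA gene. The median width was 720 bp, from 248 to 1497 bp.

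None of the 6 differences in location from the other classes without a hESC peak passed. Over 100 kb from gene ends lay 45.2% of the regions strong in hDE alone, a difference of -5.53 percentage points for the regions shared with hAFE (95% interval -9.73 to -1.21, two-sided Fisher's exact test p = 0.0123, Benjamini-Hochberg adjusted over 6 tests 0.0739), which did not pass 0.05. With a limit of 5 kb in place of 1 kb from gene ends it passed the same exact test (adjusted p = 0.0266), as it did without hESC replicate 2 (0.0245), hDE replicate 1 (0.000297) or hAFE replicate 2 (0.00604). Of regions strong in hAFE alone 41.1% lay that far (difference -1.41, interval -6.08 to 3.34, adjusted p = 0.699 by the exact test), but without hAFE replicate 2 the difference was 5.01 the other way and passed (adjusted p = 0.00604). Of the 278 regions that lasted into hPFE, 42.4% lay that far (difference -2.79, interval -9.83 to 4.16, adjusted p = 0.699 by the exact test).

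The share inside genes was 40.1%, 44.2% and 42.1% in these 3 classes, with differences of 1.65 (-2.58 to 5.98), -2.54 (-7.25 to 2.25) and -0.377 percentage points (-7.44 to 6.57). None passed (adjusted p = 0.699, 0.699 and 0.941 by Fisher's exact test). Without hAFE replicate 2 the first was 4.04 and the second -4.06, and both passed with an adjusted p of 0.0214. Neighbouring regions are not fully independent, and the tests treat each as a separate one.

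Against the other 16728 distal regions strong in the same 4 libraries, which have a peak in hESC, hPFE or both, the difference was larger; these others lay closer to genes than distal strong regions as a whole (24.4% against 35.3% over 100 kb away). In a comparison added after these values were seen, 39.7% of the 585 against 24.4% of the others lay over 100 kb from gene ends, a difference of 15.2 percentage points (11.3 to 19.3, two-sided Fisher's exact test p = 1.77e-15, adjusted over 2 tests 3.54e-15). Inside genes lay 41.7% against 46.0%, a difference of -4.25 (-8.25 to -0.143, adjusted p = 0.0428 by the exact test). The second passed narrowly and was lost without hESC replicate 2 (0.0560), hDE replicate 1 (0.0531), hAFE replicate 1 (0.0532) or hAFE replicate 2 (0.0603). Shares in other shared regions missing from 1 end of the course lay nearby. Over 100 kb away were 39.9% where the hPFE peak was weak and hESC had none, 42.4% where it was strong, and 40.6% where hPFE had none and 1 hESC library had a peak. It was 36.7% where both hESC libraries had a peak and hPFE had none, and 18.9% where both did and hPFE was strong, as the plot of distance by state shows.

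**Figure D4:**
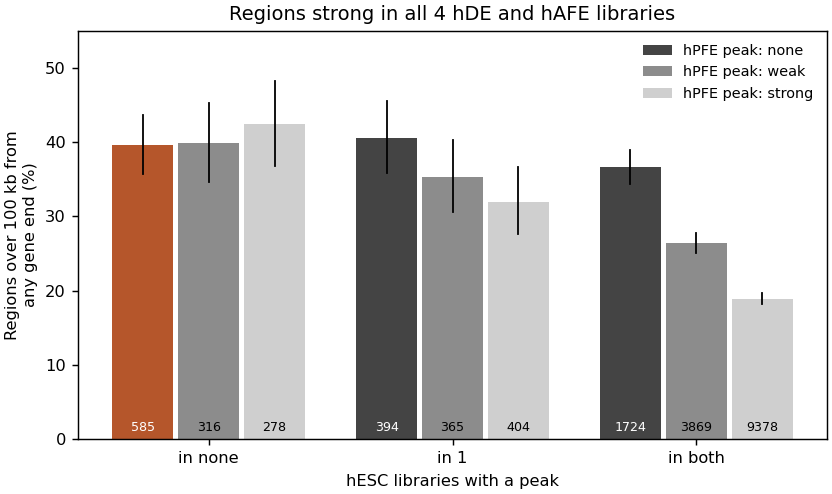
Share of distal regions strong in all 4 hDE and hAFE libraries that lay over 100 kb from every protein-coding gene end, by the number of hESC libraries with a peak (x axis) and the hPFE peak (shade). Lines are Wilson 95% intervals and the numbers at the foot are regions; the 585 regions with no peak in hESC and hPFE are in colour at 39.7%, and regions of both hESC libraries with a strong hPFE peak are lowest at 18.9%.

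The genes near these regions were mostly open at their own starts throughout. RefSeq start windows were held for 268 of the 345 genes. A strong peak overlapped at least 1 of a gene's windows at 78.0% to 83.6% of them, depending on the library, and in all 7 libraries at 198 (73.9%), against 61.6% of 12328 genes with a distal strong region. No peak of any rank overlapped a start at 16 (5.97%, against 11.3%). The pattern of the 585 regions, strong in hDE and hAFE with no peak in hESC and hPFE, was at a start window of 0 of the 268 and 1 of the 12328, the latter PTPRD. At PRDM1, for example, the best peak at the start was number 31793 and 23884 in the hESC libraries, 9728 and 8164 in those of hDE, 5685 and 9226 in those of hAFE and 10780 in hPFE. At DKK1 the hESC numbers were 5863 and 15793, the hDE numbers 9264 and 4901, the hAFE numbers 19312 and 11453 and the hPFE number 44675. GSC had hESC numbers of 38223 and 98904, hDE numbers of 10668 and 53561, hAFE numbers of 47214 and 57243 and a hPFE number of 45466. These starts had a listed peak in every library, hESC and hPFE included, although the distal region of the same gene did not.

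The regions were spread unevenly over chromosomes. Of the distal regions strong in the 4 libraries, those with no peak in hESC and hPFE were 61 of 1120 on chromosome 3 (5.45%, Wilson 95% interval 4.26% to 6.93%), 48 of 905 on chromosome 8 (5.30%, 4.02% to 6.96%) and 51 of 1022 on chromosome 4 (4.99%, 3.82% to 6.50%). On chromosome 19 it was 1 of 511 (0.196%, 0.0346% to 1.1%), and on chromosome 22 it was 0 of 223, with an upper bound of 1.69%. The intervals cover counting error only. Chromosomes 17, 19 and 22 were the lowest of the 23, and the differences between chromosomes were not tested.

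**Figure D5:**
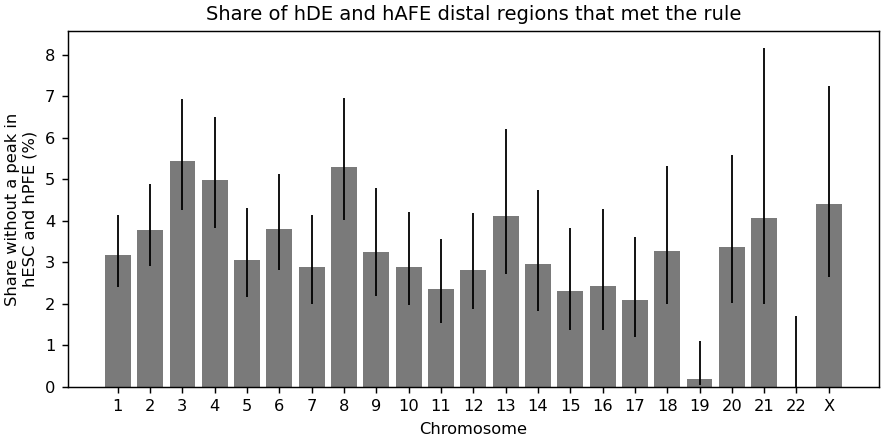
Share of the distal regions strong in all 4 hDE and hAFE libraries that had no peak in hESC and hPFE, for each chromosome, with Wilson 95% intervals as lines. Chromosomes 3 and 8 are highest at 5.45% and 5.30%, and chromosomes 19 and 22 lowest at 0.196% and 0%.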

How the data were processed

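Processed peak lists of 7 ATAC-seq libraries were used, 1 list a library. The submitters' processing notes name hg38 and, with no version, DiffBind. Per the deposited file names, duplicates and mitochondrial reads were removed and Tn5 cut sites used. The aligner and peak caller were not given in the sources used here. Each deposited peak carries the authors' fold enrichment of its summit (a ratio) and −log10 p and q values, and the deposited peak number was used as its rank. The deposited summit offset gave summit positions, and the score column of the authors was not used. Lists held 298508 to 299374 peaks. The highest peak number was 300000 in each of the 7 libraries, so the lists appear to have been cut at that rank. Read depth is not given. Summit count and background were recovered from fold and −log10 p (100% of peaks within 0.001), and the background was 2.11 to 7.94 counts. Whether the libraries differed in depth cannot be read from this alone.

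Regions were built in Python 3.11.15 with pandas 2.3.3, NumPy 2.4.6 and SciPy 1.17.1, with an overlap of at least 1 bp, and checked on simulated peak lists. A region was assigned to the nearest protein-coding gene end (RefSeq, GRCh38.p14, not given by the authors). Location was compared by two-sided Fisher's exact tests. The regions, gene lists and comparisons were chosen with earlier results of these data known. Genes were named by rule: the 12 strongest regions, the 3 on each side of the limit, the 20 genes with most regions, listed genes with a region, stage markers and the most crowded regions. Chromosomes 1 to 22 and X were used. DNA of the other regions was not used here, and some listed genes are not reported here.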

Additional observations from a re-analysis of the deposited data

How the results depend on the processing

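The number of regions was 200 with a limit of 50000 strong peaks, 936 with 100000 and 2112 where weak peaks were allowed in hESC and hPFE. Leaving out 1 library gave 687 to 1164. The genes with a region were then 120, 527 and 1156, and 397 to 666 without 1 library, and 121 where regions were assigned within 20 kb. The shares of hDE above and hAFE above were 7.18% and 10.9% ordered by fold, and 7.35% and 7.01% by height. Without 1 library they were 31.0% to 57.6% and 18.8% to 41.6%, with hAFE above more often (41.6% against 33.6%) only without hDE replicate 2, where leaving out a hDE or hAFE library sets a single library against 2. The median summit distance between stages was 20.5 bp, and 17.0 bp in regions with 1 peak in each library.

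The 6 location comparisons, each repeated under 14 other settings (84 in all), passed in 7. In percentage points, the share over 100 kb from gene ends against hDE alone was -6.60 with a 5 kb limit, and -7.41 to -1.93 without 1 library. Against hAFE alone it was 1.69 with 100000 strong peaks, 1.39 by fold and 2.04 with weak peaks allowed, and -5.02 to 5.01 without 1 library. Against regions lasting into hPFE it was 1.02 with weak peaks allowed, -11.6 with 50000 strong peaks and -4.13 to 3.67 without 1 library. The share inside genes against hDE alone was 7.37 with 50000 strong peaks and 0.605 to 4.06 without 1 library. Against hAFE alone it was 0.903 with 50000 strong peaks and -4.06 to -0.421 without 1 library. Against lasting regions it was 10.9 with 50000 strong peaks, 1.60 with no peak within 500 bp and -1.06 to 0.113 without 1 library. In the comparison with the other shared regions, added after the data were seen, the share over 100 kb kept its direction and passed under all 14 alternatives. The share inside genes was 0.00451 with 50000 strong peaks, -2.79 with 100000, -2.94 by fold, -4.43 with no peak within 500 bp and -3.12 with a 5 kb limit, none passing, and -4.84 to -2.86 without 1 library. The cause of these changes was not tested. No paired analysis was possible because the regions come from the presence of peaks and no test was made over libraries.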
